A study of Mus musculus with 39 samples.

Results

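Expression of 10 inflammatory genes was followed in cells of mouse brown fat: the cytokines Tnf, Il1a, Il1b, Il6, Il18, Il12b and Osm, the interleukin 1 receptor antagonist Il1rn, the inflammasome sensor Nlrp3 and the prostaglandin synthase Ptgs2. The members were taken by gene symbol from the deposited series table, and matched 14 of 40628 probes, or 10 of 29411 gene symbols. The mice were C57BL/6J, weaned at 3 to 4 weeks of age. They received a low fat diet with 10% of calories from fat (LFC), a diet high in fat and sucrose with 60% of calories from fat (HFC), or that high fat diet together with a plant formulation named KAL-1 at 5, 20 or 75 µg (HF5, HF20 and HF75). There were 10 LFC arrays, of Week 0, 3, 9, 12, 15 and 18 and of Day 1, 6, 10 and 14. The 11 HFC arrays covered these and Week 6. Each dose had 6 arrays, of Week 3, 6, 9, 12, 15 and 18. Each array was the only one of its diet and time label, and the labels do not say how many of the 5 animals killed per group and time it held, so the spread below is that over time labels.

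These genes are early messengers of inflammation. In macrophages and neutrophils, signals from microbes or damaged tissue act through the transcription factor NF-kappaB to switch on Tnf, Il1b, Il6 and Ptgs2, and the inflammasome, a protein complex that Nlrp3 can start, then leads caspase-1 to cut the interleukin 1 beta and interleukin 18 precursors into their active forms. In obese fat tissue, macrophages are a known source of tumour necrosis factor and interleukin 1 beta. Ptgs2, or cyclooxygenase 2, makes the precursor of the prostaglandins.

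The promoters of 4 members whose values fell on the same arrays are shown, as the 200 bases before the start in the RefSeq promoter table, written 5′ to 3′ along the strand of the gene. The RefSeq gene table starts Il1b further upstream, so the last 25 bases of its window lie inside the gene. Capitals mark the letters GGGNNNNNCC, a loose form of the NF-kappaB site searched on both strands, and TATAAA, the TATA box.
Il1b (GRCm38.p6, chr2:129371140-129371339, minus strand): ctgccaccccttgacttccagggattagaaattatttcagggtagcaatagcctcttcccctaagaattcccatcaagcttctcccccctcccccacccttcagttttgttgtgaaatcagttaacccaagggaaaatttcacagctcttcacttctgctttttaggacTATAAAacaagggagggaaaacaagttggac
Il6 (GRCm38.p6, chr5:30012914-30013113, plus strand): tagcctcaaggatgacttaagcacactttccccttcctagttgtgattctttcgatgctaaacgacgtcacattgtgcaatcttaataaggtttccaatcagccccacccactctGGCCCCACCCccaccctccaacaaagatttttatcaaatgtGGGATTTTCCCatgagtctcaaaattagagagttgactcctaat
Ptgs2 (GRCm38.p6, chr1:150099831-150100030, plus strand): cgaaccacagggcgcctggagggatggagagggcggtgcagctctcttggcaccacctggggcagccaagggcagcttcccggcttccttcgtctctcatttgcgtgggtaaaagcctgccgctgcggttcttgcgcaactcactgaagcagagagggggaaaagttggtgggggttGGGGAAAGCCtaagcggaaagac
Tnf (GRCm38.p6, chr17:35202008-35202207, minus strand): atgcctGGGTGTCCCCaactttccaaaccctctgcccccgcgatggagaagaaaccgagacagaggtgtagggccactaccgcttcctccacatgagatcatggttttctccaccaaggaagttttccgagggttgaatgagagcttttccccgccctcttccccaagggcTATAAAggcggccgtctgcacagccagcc
In the 300-base windows that also hold the first 50 bases of the transcript, GGGNNNNNCC was found in 8 of 12 windows of 9 members and in 50.8% of all 32851 windows. TATAAA, also searched on both strands, was found in 5 of the 12 windows and in 13.6% of all. In Tnf, Il1a and Il1b it began at -29, -32 and -31 from the start, on the strand of the gene. In Il18 (-175) and Il1rn (15) it lay on the opposite strand. The AP-1 letters TGANTCA were found in 3 of the 12 and in 7.81% of all. In Il6, overlapping matches on opposite strands began 44 and 43 bases before the start. Osm had no entry in the promoter table.

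Values are log2 of the processed signal minus the 75th percentile of the array, so 0 is the level of a fairly bright probe of that array, and the levels of different genes cannot be set against each other. Array brightness differed widely, with a 75th percentile from 18.1 to 3974 intensity units (median 129.9). A probe counts as well above background by a flag that the scanner software sets from the signal and its background. Of 39 arrays, Il1b was well above background on 39, Il18 on 35, Osm on 33, Il6 on 32, Tnf on 29, Il1rn on 23, Nlrp3 on 20, Ptgs2 on 18, Il1a on 6 and Il12b on 5. Il12b therefore did not pass the filter of 6 arrays, and 9 of the 10 members were tested. The lowest value well above background differed between arrays, from -9.04 (LFC Week 12, with a 75th percentile of 1289) to -3.15 (HF5 Week 18, with 24.3), so the same low value can be measured on one array and lie at background on another.

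Some arrays stood apart or had doubtful labels. The titles of 9 arrays carry BA or BAT as 1 token, where the others have B, B-A, B_A or other forms. The labels do not explain this. These 9 arrays (HFC Day 1, LFC Day 6, HFC and HF5 Week 9, LFC and HF20 Week 12, HF5 and HF75 Week 15, LFC Week 18) had a 75th percentile of 124 to 1289 (median 852), against 18.1 to 3974 (median 81.1) for the other 30. At Day 14 the LFC and HFC columns of the series table were exchanged against the scanner files, where the difference between both arrays correlated at -0.995 over probes. The Week 12 HFC column followed its scanner file at 0.32 to 0.83 only, while the other 56 pairs of arrays were at 0.994 or more. The Week 12 HF20 array has a characteristic that names the high fat diet alone. Outlier flags covered 71.4% of the spots of HF20 Week 15, 18.6% of HF5 Week 12 and 11.1% of HFC Week 12. The labelled tissue is macrophages of brown fat (stromal vascular cells). Of 8 macrophage markers, 6 were well above background on all 39 arrays, among them Emr1, Cd68 and Csf1r. The fat cell markers Adipoq and Cidec and the brown fat cell markers Ucp1 and Cidea were also well above background on all 39 arrays.

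**Figure D1:**
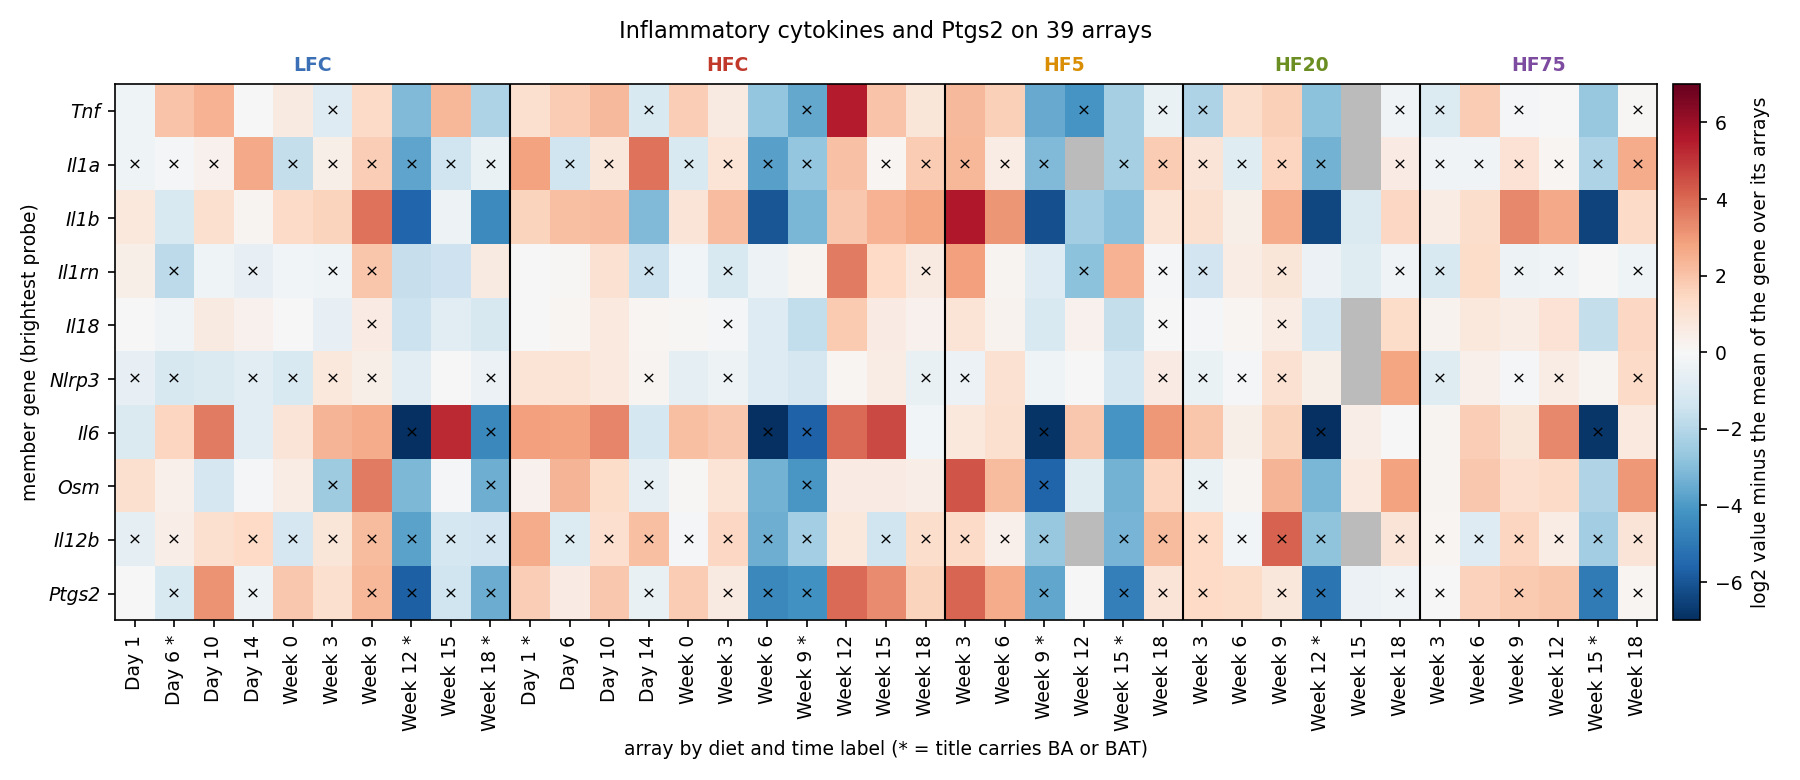
Values of the 10 genes (rows, brightest probe) on 39 arrays (columns, by diet and time label), as log2 value minus the mean of the gene over its arrays, with red above and blue below that mean. A cross marks a probe not well above background, grey a probe dropped as an outlier, and a star a title with BA or BAT. The bluest columns of Il1b, Il6, Osm and Ptgs2 are the starred ones from Week 9 on and HFC Week 6.

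Averaged over the 9 tested members, each centred on its own mean, 7 of the 8 lowest arrays were titled BA or BAT. The lowest was LFC Week 12 at -3.62 and the second HFC Week 6 at -3.47, which has no such title. The highest were HF5 Week 3 at 2.53 and HFC Week 12 at 2.62. The members tended to move together, and over the arrays the Spearman correlation was above 0 in all 36 pairs of members, with a median of 0.514, from 0.15 (Il1a and Il1rn) to 0.85 (Il1b and Ptgs2). These pairs share their arrays, with the brightness of each, and are given as a description.

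The comparison of HFC with LFC asks what the high fat diet did. None of the members passed the threshold. For Il1b, which encodes interleukin 1 beta, the LFC values ran from -4.27 to 5.06 with a median of 1.72 (n = 10), and the HFC values from -4.74 to 4.04 with a median of 3.17 (n = 11). The ranges overlapped almost wholly, and the difference in the fit was 0.67 ± 1.42 (SE, log2, limma adjusted p = 1.00). For Tnf, the tumour necrosis factor gene, LFC ran from -5.32 to 0.20 (median -1.86) and HFC from -5.80 to 3.29 (median -1.09), with a difference of 0.49 ± 0.99. For Il6, a cytokine that drives the acute phase response, LFC ran from -7.42 to 5.23 (median 1.21) and HFC from -8.69 to 4.66 (median 2.15), with a difference of 0.48 ± 1.77.

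All 9 differences lay above 0, between 0.39 and 0.94, with a median of 0.49, beside a median of 0.05 over all probes. Of all probes, 54.2% lay above 0, and the 9 members share their arrays and tended to move together. With normexp background correction, 4 of the 9 lay above 0. None passed, and 0 of 9 had an unadjusted p under 0.05, where the share of all 34035 probes called was 0.0% adjusted and 2.82% unadjusted. The largest difference was that of Ptgs2, at 0.94 ± 1.22, and the smallest p that of Nlrp3, at 0.46 ± 0.39 (unadjusted p = 0.250). Il1rn, whose product blocks the interleukin 1 receptor, had 0.61 ± 0.62, and Il18 had 0.39 ± 0.42. The interleukin 6 family cytokine Osm had 0.39 ± 1.05 and Il1a had 0.70 ± 0.75, on a probe well above background on 6 arrays. Without the 9 arrays titled BA or BAT, the difference was -0.31 ± 1.17 for Il1b and -1.25 ± 1.20 for Il6, 7 of 9 differences lay above 0, and again none passed. With the Day 14 labels exchanged, a choice made after seeing the data, Il1b had 1.31 ± 1.41, and the 9 differences ran from 0.27 to 1.31.

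Week 9 and Week 12 stood apart from the other time labels, and in opposite directions. At Week 9, all 10 members were lower on the HFC than on the LFC array, by a median of -4.78. Il1b read -1.95 in HFC and 5.06 in LFC, Il6 -5.65 and 2.64, Osm -6.38 and 1.29, and Tnf -5.80 and -0.87. The HFC array was the one titled BAT, and its Il6, Osm and Tnf were not well above background. The LFC array was scanned on another date than the HFC array and was dim, with a 75th percentile of 24.1 against 918. On it, Il1a, Il1rn, Il18, Il12b, Ptgs2 and Nlrp3 were not well above background. The differences of these genes therefore rest on values near background, which move with array brightness. At Week 12, all 10 members were higher on the HFC array, by a median of 5.50. Il1b read 3.17 in HFC and -4.27 in LFC, Il6 3.98 and -7.42, Tnf 3.29 and -5.32, and Ptgs2 0.40 and -9.31. Here the LFC array was the one titled BA, and its Il6 and Ptgs2 were not well above background. The HFC Week 12 array stood apart in cell type markers too. Its mean log2 level was the lowest of all 39 arrays for the brown fat cell list (-3.24, against 3.88 in LFC Week 12) and the highest for the macrophage list (2.39, against -1.36) and the mesothelial list (2.10, against -8.55). LFC Day 10, part of a pair used in the next paragraph, came next for the brown fat cell list (-1.12) and the mesothelial list (1.54). Its macrophage level (-0.05) was not among the highest. The part of these lists in the differences was not tested.

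Over all probes, 66.5% were lower in HFC at Week 9 and 57.5% higher at Week 12. Each of these is 1 array against 1, with no replicate check. At Week 18, the LFC array titled BA read -3.19 for Il1b against 4.04 in HFC, and 9 of 10 members were higher in HFC. At the 5 time labels where neither array had such a title (Week 0, Week 3, Week 15, Day 10 and Day 14), the mean difference of Il1b was 0.13 ± 2.24 (SD, n = 5), higher in HFC at 3 of 5. For Il6 it was -0.10 ± 0.76 (SD, n = 5), higher in HFC at 1 of 5, and for Tnf 0.20 ± 1.05, higher at 2 of 5. At Day 14, whose diet labels are in doubt, the difference was -3.30 for Il1b, -1.08 for Tnf and -0.47 for Il6. Exchanged labels would turn these signs, and the means and counts with them would change. Il1a was higher at 5 of 5, by 0.47 to 1.56, but was well above background only on the Day 14 arrays. Its Day 14 difference was 1.14 and would also turn with exchanged labels.

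**Figure D2:**
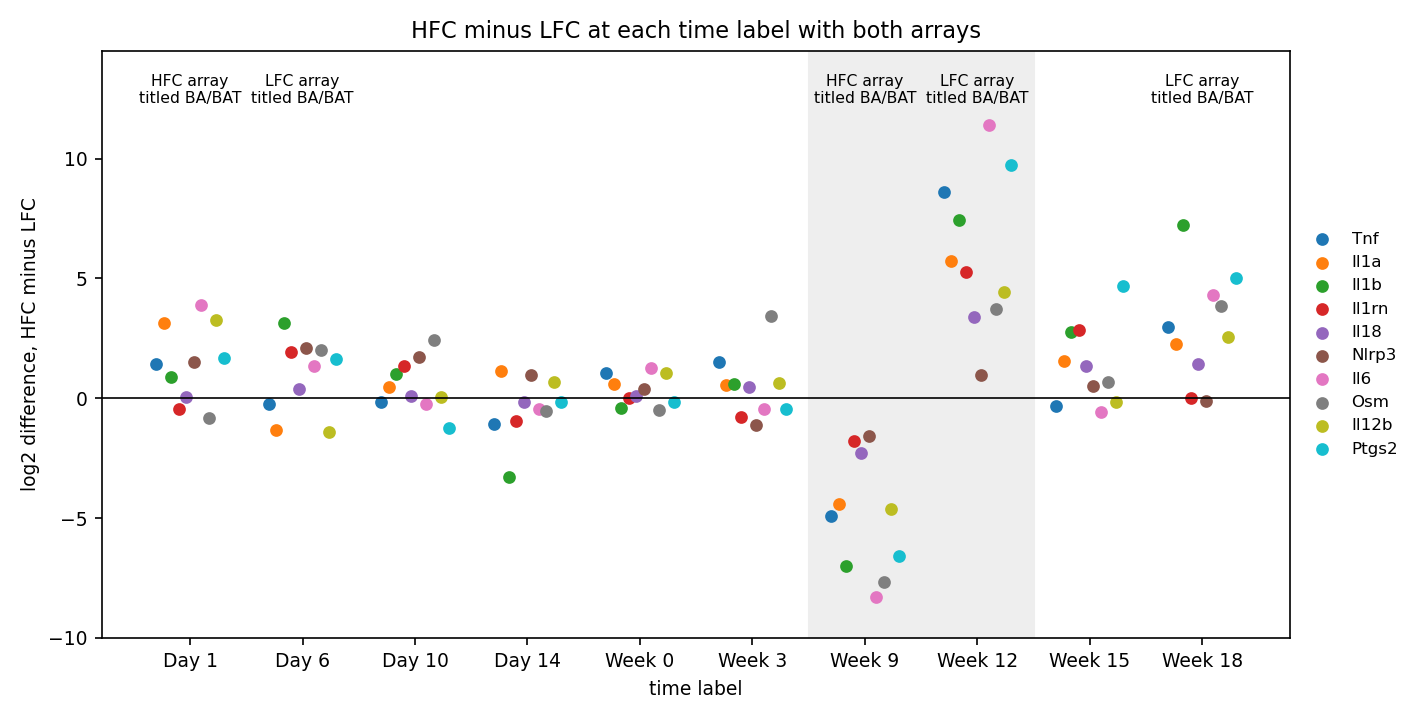
Log2 difference of HFC minus LFC (vertical) of the 10 genes at the 10 time labels with both arrays (horizontal), 1 point a gene, with the array titled BA or BAT named above. All points lie below 0 at Week 9 and above 0 at Week 12 (both shaded). Points that rest on values near background are not marked.

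The 3 dose groups ask whether the formulation moved these genes against the high fat diet alone. None of the 9 tested members passed the threshold at any dose, where 0.0% of all probes were called in each of the 3 comparisons. In HF5, Il1b ran from -4.89 to 6.88 with a median of 0.51 (n = 6), in HF20 from -5.09 to 3.88 with a median of 2.04 (n = 6), and in HF75 from -5.22 to 4.63 with a median of 2.55 (n = 6). In each group the lowest value was on an array titled BA or BAT. Against HFC, Il1b differed by -0.15 at 5 µg, -0.12 at 20 µg and 0.61 at 75 µg, each ± 1.76 (SE, log2), all small beside the error.

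Tnf had the largest negative difference, -1.41 ± 1.23 in HF5 (adjusted p = 1.00), followed by -0.77 ± 1.31 in HF20 and -0.63 ± 1.23 in HF75. In HF5 its values ran from -6.33 to 0.04 with a median of -3.62, and its HFC values from -5.80 to 3.29, so the ranges overlapped and the lowest HF5 value (Week 12) lay below every HFC value. Osm had the largest positive difference, 1.66 ± 1.30 in HF75, beside 1.16 ± 1.30 in HF20 and 0.47 ± 1.30 in HF5. Its HF75 values ran from -4.42 to 0.70 (median -1.06) and its HFC values from -6.38 to 0.05 (median -1.88). The further Osm probe had 1.24 ± 1.39 in HF5, -0.07 ± 1.48 in HF20 and 0.78 ± 1.39 in HF75, so the sign in HF20 and the order of the doses differed between the probes.

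For Il6 the differences were -0.31 ± 2.19, -0.33 ± 2.19 and 0.40 ± 2.19 at the rising doses, and for Ptgs2 -0.03, -0.26 and 0.21, each ± 1.51. Nlrp3 differed from HFC by 0.73 ± 0.52 in HF20 (unadjusted p = 0.170). Il18 had -0.08 ± 0.52, 0.10 ± 0.56 and 0.51 ± 0.52, and Il1rn -0.37, -0.86 and -0.74, each ± 0.77. The further probe of Il1rn had 1.09 ± 0.80 in HF5, 0.20 ± 0.86 in HF20 and 0.36 ± 0.80 in HF75, on the other side of 0 in all 3. The 2 Il1rn probes had a Spearman correlation of 0.02 over 38 arrays, against 0.96 for Il1a, 0.95 for Ptgs2 and 0.85 for Osm, and the further Il1rn probe was well above background on 6 arrays. Of the 9 differences, 8 lay below 0 in HF5, 6 in HF20 and 2 in HF75. Of all probes, 47.2%, 48.6% and 53.9% lay above 0 at the rising doses. The counts of members turned with the arrays used. Without the arrays titled BA or BAT, 7 of 9 lay above 0 in HF5 (median 1.07), as 7 did without Week 15. In HF20, 8 of 9 lay above 0 without Week 12. Without HFC Week 6, a choice made after seeing the data, 9, 7 and 6 lay below 0 at the rising doses. All 3 comparisons share the HFC arrays. In the same 3 comparisons, 0 of 9 members had an unadjusted p under 0.05, where 1.46%, 2.66% and 3.56% of all probes did.

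**Figure D3:**
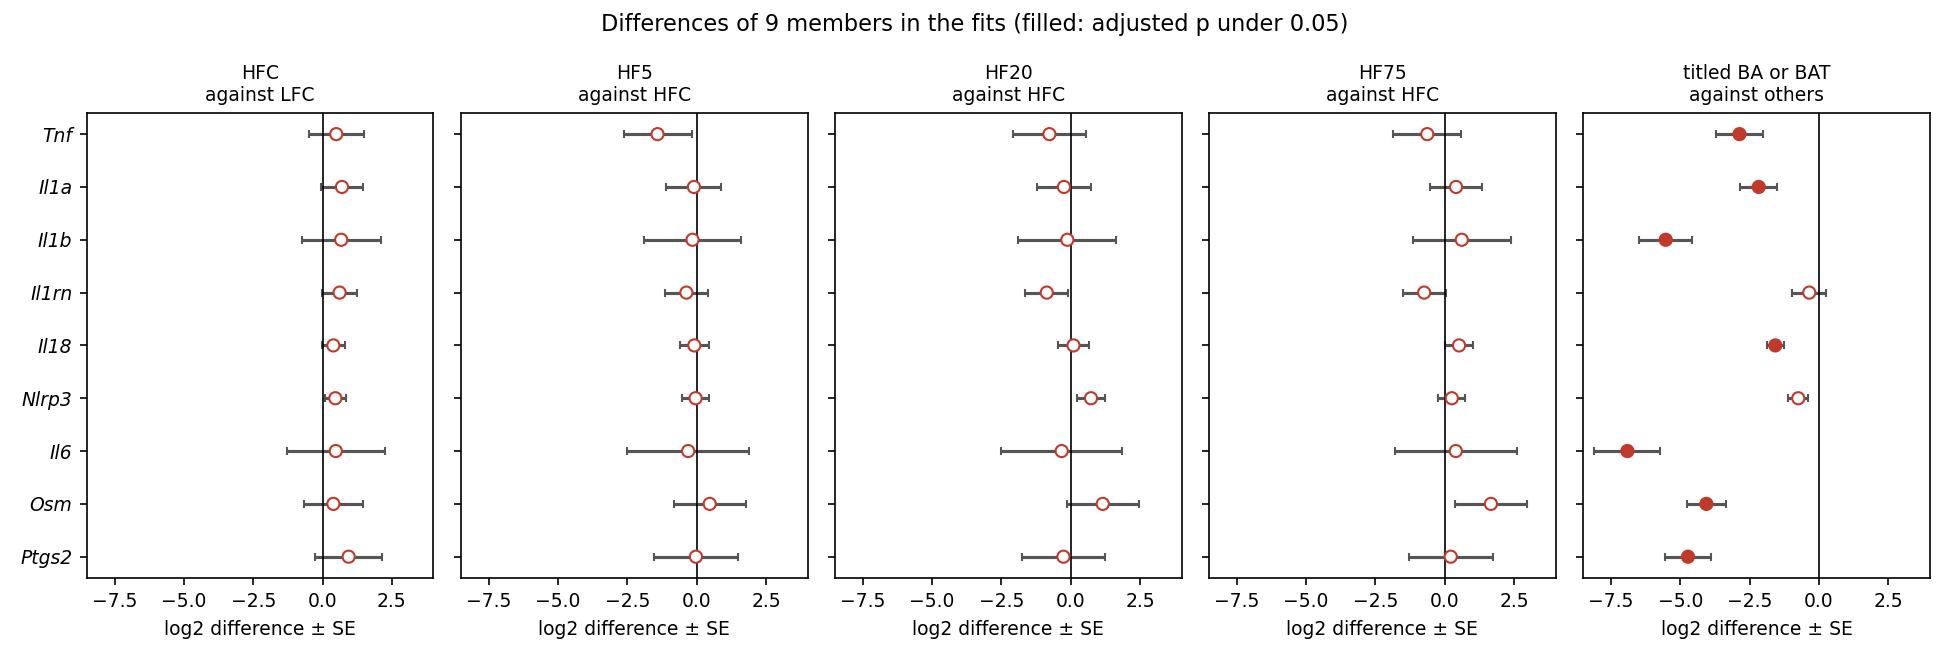
Log2 differences (horizontal) of the 9 tested members (vertical) for HFC against LFC, the 3 doses against HFC, and arrays titled BA or BAT against the others, as estimate ± SE from limma. Filled points have an adjusted p under 0.05. No diet difference is filled, and 7 of 9 are filled for the titles.

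Over time, no member changed past the threshold in LFC and HFC. The slopes per doubling of days ran from -0.39 ± 0.39 (Il6) to 0.12 ± 0.13 (Il1rn), and that of Il1b was -0.29 ± 0.28 (SE, log2). The slope of the further Il1rn probe was -0.20 ± 0.18, on the other side of 0. Of the 9 slopes, 8 lay below 0, with a median of -0.23, where 36.4% of all probes lay above 0. Without the 9 arrays titled BA or BAT, 8 of the 9 lay above 0, with a median of 0.09. In the fit on all arrays, 0 of 9 had an unadjusted p under 0.05, where 0.0% of all probes were called and 11.9% had such a p. The slope of Osm, -0.31 ± 0.19, had the smallest p (unadjusted p = 0.120).

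The title of the array went with larger differences than any diet in the 7 members that passed below, but not in Il1rn, and in Nlrp3 the sizes were alike (-0.74 by title and 0.73 in HF20 against HFC). The comparison of titles was chosen with earlier results of these data known, so its p-values are not those of a planned test. With diet and time label in the fit, 7 of the 9 tested members were lower on the 9 arrays titled BA or BAT (limma adjusted p under the threshold), where 31.8% of all probes were called lower, 20.5% higher and 52.4% in all. The median of the 9 members was -2.86 and that of all probes -0.30. The titled arrays were brighter in the median (75th percentile 852 against 81.1), and a gene at background reads lower on a brighter array. At Week 9, Il1a read -7.65 on the titled HFC array and -3.22 on the dim LFC array, well above background on neither. For values near background this runs in the direction of the differences below, and its part was not tested.

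Il1b was measured above background on all 39 arrays. On the titled arrays it ran from -5.22 to 2.85 with a median of -3.19 (n = 9), and on the others from -4.74 to 6.88 with a median of 2.60 (n = 30). From Week 9 to Week 18 the groups did not overlap, with titled arrays at -5.22 to -1.67 (n = 7) and the others at -1.18 to 5.06 (n = 13). The difference was -5.52 ± 0.96 (SE, log2, limma adjusted p = 0.000175), or 46.0-fold lower on the titled arrays.

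Il6 had -8.72 to 2.89 (median -5.65) on the titled arrays, where it was well above background on 3 of 9, and -8.69 to 5.23 (median 1.69) on the others, where it was on 29 of 30. The difference was -6.91 ± 1.19 (adjusted p = 0.000160), which rests on values near background on 6 of the 9 titled arrays. Osm had -7.91 to -1.96 (median -5.50) on the titled arrays and -5.63 to 2.07 (median -1.68) on the others, measured on 6 of 9 and 27 of 30, with a difference of -4.06 ± 0.72. Ptgs2 had -9.31 to -1.87 (median -7.84) against -8.08 to 0.49 (median -2.39), with -4.72 ± 0.82. From Week 9 to Week 18, Ptgs2 was well above background on 0 of 7 titled and 6 of 13 other arrays, so no fold is given.

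Tnf was lower by a smaller step, -2.86 ± 0.84 (adjusted p = 0.00680), and Il18 by -1.57 ± 0.30 (adjusted p = 0.000316). Il18 had -3.50 to -1.73 (median -3.03, n = 9) on the titled arrays and -2.71 to 0.07 (median -1.49, n = 29) on the others, so the ranges overlapped. Il1a had -2.17 ± 0.66 (adjusted p = 0.00867), but was well above background on 1 of 9 titled and 5 of 30 other arrays. With quantile normalization Il1a had -0.49 and did not pass. Nlrp3 had -0.74 ± 0.37 (adjusted p = 0.0901) and Il1rn -0.35 ± 0.62 (adjusted p = 0.653), and neither passed. The further Il1rn probe had -2.05 ± 0.52 (adjusted p = 0.00266).

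The scaling moved these sizes. Quantile normalization shifted the median of all probes to 0.18 and normexp background correction to -1.29. Relative to the median of all probes, Il1b lay at -5.23 as reported, -5.15 with quantile normalization and -1.98 with normexp. For Il6 the values were -6.61, -5.91 and -2.49, and for Tnf -2.57, -2.33 and -1.26. Nlrp3 lay at -0.45, 0.14 and -0.75, so its side of the median turned with quantile normalization.

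Within single weeks the step was the same way. The 2 titled arrays of Week 9 were scanned on a different date from the 3 others. Title, scan date and brightness therefore cannot be told apart in that week. All arrays of Week 12 shared a scan date, as did those of Week 15. At Week 9, Il1b read -4.89 (HF5) and -1.95 (HFC) on the titled arrays and 3.88 (HF20), 4.63 (HF75) and 5.06 (LFC) on the others. At Week 12 it read -5.09 (HF20) and -4.27 (LFC) on the titled arrays and -1.18 (HF5), 3.17 (HFC) and 3.92 (HF75) on the others, so HF5, the array with 18.6% of spots flagged, came closest. At Week 15 it read -5.22 (HF75) and -1.67 (HF5) against 0.26 (HF20), 0.92 (LFC) and 3.69 (HFC).

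Il6 read -6.84 and -5.65 on the titled arrays of Week 9 and 0.89, 1.60 and 2.64 on the others. At Week 12 it read -8.72 and -7.42 against 1.89, 3.36 and 3.98. In all 4 weeks from Week 9 to Week 18, every titled array lay below every other array for 6 of the 9 members (Il1a, Il1b, Il6, Il18, Osm and Ptgs2), and 14.2% of all probes did so. For Il1a, well above background on 0 of these 7 titled and 3 of these 13 other arrays, and in part for Ptgs2, this order compares values near background, which move with array brightness. Tnf did so in 3 of the 4 weeks, Nlrp3 in 1 and Il1rn in 0.

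The early titled arrays differed from each other. At Day 1, 8 of 10 members were higher on the titled HFC array. Il1b read 2.85 on it and 1.98 on the LFC array, and Il6 2.89 and -1.01. At Day 6, 7 of 10 members were lower on the titled LFC array, the same way as in the late weeks. Il1b read 0.20 on it and 3.35 on the HFC array, and Il6 1.51 and 2.85. Each day had 1 HFC and 1 LFC array, so title and diet cannot be told apart there. Without Day 1 and Day 6, left out after seeing the data, the differences of Il1b and Il6 were -6.62 ± 0.97 and -8.93 ± 1.00, and 8 of the 9 members passed. HFC Week 6, which has no such title, read -4.74 for Il1b, -8.69 for Il6, -8.08 for Ptgs2 and -4.91 for Tnf, against 1.68 to 4.33, 0.44 to 1.77, -2.32 to -0.97 and -1.01 to -0.43 on the 3 other arrays of that week.

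**Figure D4:**
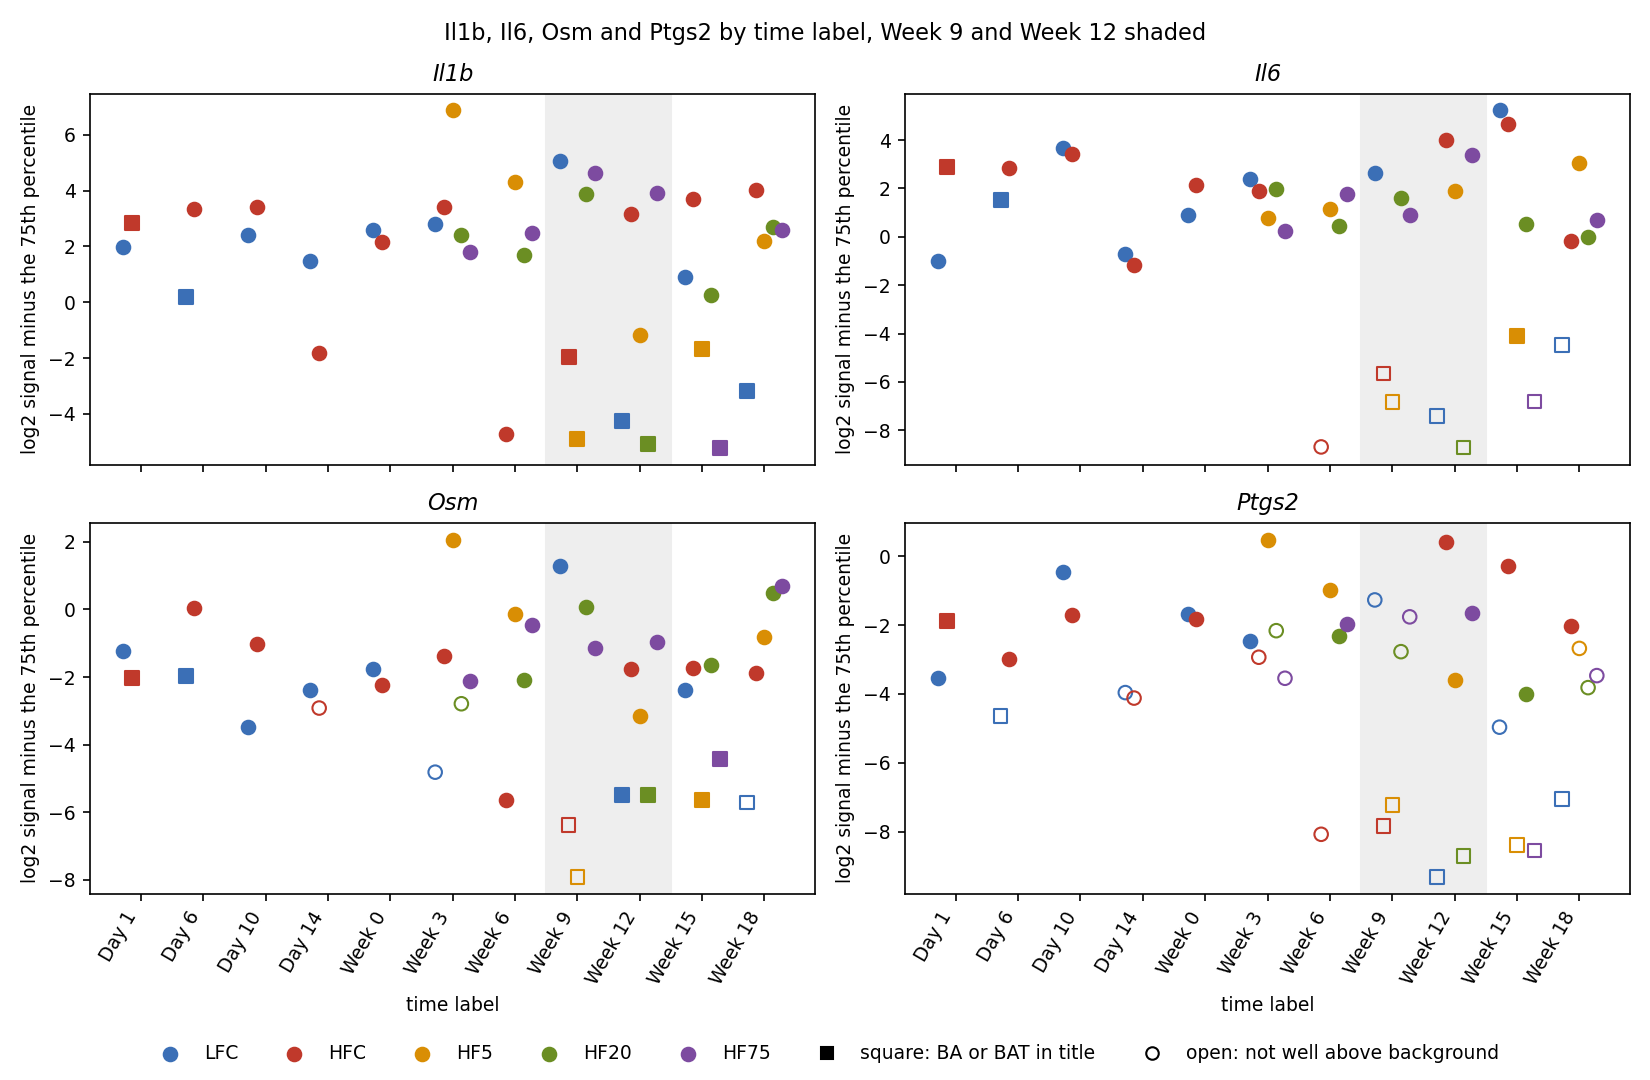
Log2 signal minus the 75th percentile of the array (vertical) for Il1b, Il6, Osm and Ptgs2 by time label (horizontal), coloured by diet. Squares are arrays titled BA or BAT, and open symbols are not well above background. From Week 9 on the squares lie below the circles of the same week in all 4 panels, and at Week 6 the HFC circle lies as low.

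Genes around the members were read from lists of the pathway. None of the genes of these lists passed in a diet comparison or over time. By title, the receptors fell in 7 of 13 tested genes (median -1.45), led by Il18rap (-3.93 ± 0.58), the decoy receptor Il1r2 (-3.73 ± 0.72), Il12rb2 (-2.91 ± 0.65) and Il18r1 (-2.84 ± 0.62). Il18rap was well above background on 1 of 9 titled and 13 of 30 other arrays and Il18r1 on 3 of 9 and 16 of 30, so the sizes of these differences rest mostly on values near background. The inflammasome genes fell in 8 of 10 (median -1.59), led by Mefv, the pyrin gene (-2.66 ± 0.67), Casp4 (-2.38 ± 0.48), Pycard, the adaptor of the complex (-2.34 ± 0.43), and Nlrc4 (-1.79 ± 0.46), which was well above background on 2 of 9 titled and 8 of 30 other arrays.

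Of 22 genes of the NF-kappaB path, 6 fell and 2 rose, with a median of 0.07. Of all probes, 31.8% were called lower and 20.5% higher. Those that fell most were the inhibitors Tnfaip3 (-3.04 ± 0.64), Nfkbia (-2.28 ± 0.53) and Nfkbie (-1.79 ± 0.40), and Nfkbiz (-2.41 ± 0.57). Ikbkg (1.39 ± 0.35) and Traf6 (0.98 ± 0.37) rose. Of 15 prostanoid genes, 6 fell and 3 rose (median -0.72): the prostaglandin E receptor Ptger3 (2.60 ± 0.43), the synthase Ptges2 (2.44 ± 0.45) and Ptgds (2.06 ± 0.58) rose, and Alox5ap of the leukotriene path (-2.40 ± 0.43) fell.

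Feedback genes fell in 6 of 10 (median -1.61), among them Socs3 (-4.13 ± 0.85), Dusp2 (-3.41 ± 0.74), Il10 (-3.28 ± 0.58) and Zfp36, whose product destabilises Tnf mRNA (-3.15 ± 0.69). Other cytokines fell in 8 of 10 (median -2.18), with Csf3 (-4.34 ± 0.97), Ifng (-4.16 ± 0.76), Csf2 (-3.52 ± 0.74) and Il4 (-2.66 ± 0.46). Csf3, Csf2 and Il4 were each well above background on 2 of 9 titled arrays, and on 9, 11 and 6 of the 30 others. Il10 was well above background on 4 of 9 and 12 of 30. The sizes of these differences rest mostly on values near background. None of the genes in these last 2 lists rose past the threshold. Over all probes, 31.8% were called lower and 20.5% higher, and no list was tested against these shares.

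Cell type markers moved with the title too, where 31.8% of all probes were called lower and 20.5% higher. All 9 tested neutrophil markers were lower on the titled arrays (median -4.65), among them Retnlg (-5.29 ± 0.80), Ngp (-5.03 ± 0.89), S100a9 (-4.68 ± 0.89) and S100a8 (-4.66 ± 0.92). Ngp was well above background on 2 of 9 titled and 23 of 30 other arrays, so its size rests in part on values near background. The mean log2 level of the neutrophil list was -4.67 to 0.18 (median -4.09) on the titled arrays and -5.08 to 3.27 (median 0.05) on the others, with HFC Week 6 at -5.08. The macrophage list fell in 6 of 8 genes (median -1.19), and its level was -1.46 to 0.43 (median -1.07) against -0.97 to 2.39 (median 0.44). T cell genes fell in 4 of 6, B cell genes in 4 of 4, dendritic cell genes in 3 of 4, erythroid genes in 4 of 4 and fibroblast genes in 3 of 4, while mast cell genes fell in 3 of 5 and rose in 1.

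Fat cell markers rose in 4 of 7 genes and fell in 1 (median 2.21). Plin1 rose by 3.41 ± 0.64, Lep by 3.30 ± 0.62 and Lipe by 2.52 ± 0.46, while Fabp4 fell by 2.36 ± 0.53 (SE, log2). Lep was well above background on 8 of 9 titled and 10 of 30 other arrays, so its size rests in part on values near background. Of 6 brown fat cell markers, Dio2 (2.39 ± 0.49) and Ppargc1a (2.10 ± 0.43) rose and none fell. Immediate early genes, which stress and tissue handling are known to induce, fell in 5 of 7 (median -2.95), led by Fos (-5.07 ± 1.05), Atf3 (-3.39 ± 0.89), Fosb (-3.03 ± 0.75) and Egr1 (-2.95 ± 0.76). Their level was -1.20 to 5.30 (median -0.03) on the titled arrays and -1.77 to 5.56 (median 3.89) on the others, with the titled Day 1 array at 5.10, the titled Day 6 array at 5.30 and HFC Week 6 lowest. Of the remaining lists, endothelial genes fell in 1 of 4, mesothelial genes in 1 of 1 and skeletal muscle genes in 0 of 4, and none of these rose. In bulk RNA, fewer cells of a type and less RNA per cell cannot be told apart. The part of these lists, of array brightness and of the title itself in the values of the members was not tested.

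**Figure D5:**
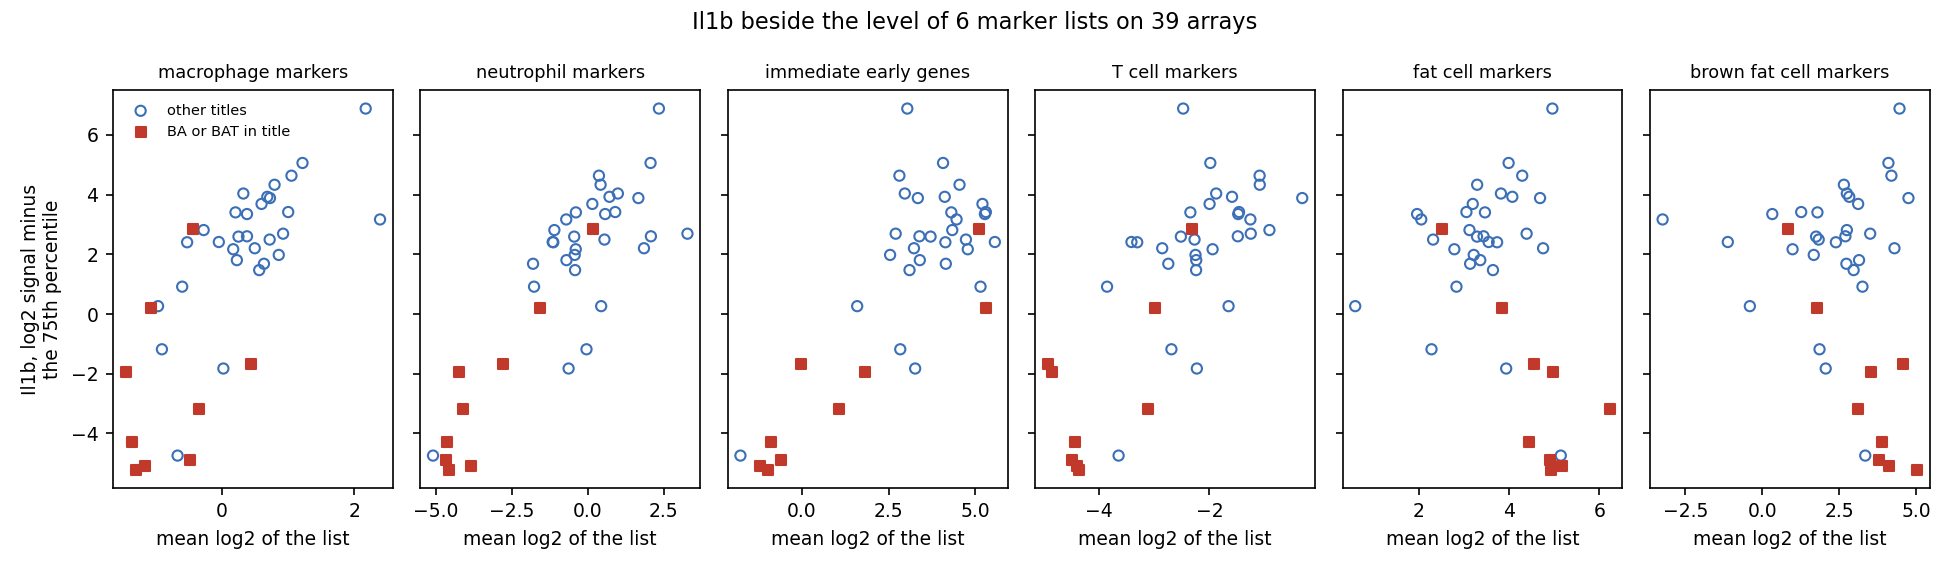
Il1b (vertical, log2 signal minus the 75th percentile) beside the mean log2 level of 6 gene lists (horizontal, flagged spots kept) on 39 arrays. Filled squares are arrays titled BA or BAT and open circles the others. Most squares lie low for Il1b and for the neutrophil and immediate early lists, and to the right for the fat cell list.

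The genes with the pattern most like the members were found by correlation. Among 24660 genes, the mean of the centred members had the highest Spearman correlation over the arrays with the chemokine genes Cxcl2 (0.93, 38 arrays) and Ccl3 (0.91, 39 arrays), the lectin receptor gene Clec4e (0.90), the Toll-like receptor gene Tlr2 (0.87) and Mefv (0.87, 38 arrays). Over the arrays without BA or BAT in the title, the values were 0.88, 0.85, 0.87, 0.79 and 0.86. These are descriptions over arrays that share the brightness and titles given above.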

How the data were processed

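RNA from cells of mouse brown fat was hybridised to 39 1-colour Agilent arrays, 1 for each diet and time label. Per the file headers, the deposited scanner data are background-subtracted intensity values per spot, made with Agilent Feature Extraction 10.5.1.1 (9.1 in the submitters' processing notes) and not scaled across arrays. A table of log2 differences between arrays of a time label, deposited by the authors, was used for gene symbols and as an alternative. From log2 of each processed signal, that array's 75th percentile was subtracted. Spots flagged as outliers were dropped and the spots of a probe averaged. Probes well above background on at least 6 arrays were tested, 34035 of 40628. Arrays have no read depth, and their number and their signal over background limit the precision.

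Diet and time label were fitted together with limma 3.58.1 in R 4.3.3. The comparison of titles added the title token as a term, and the slope over time was fitted on log2 days in LFC and HFC, with weeks counted from Day 14 as stated for the liver arrays of the same mouse experiment. P-values are two-sided and were adjusted over all tested probes by Benjamini-Hochberg, with a threshold of 0.05. The deviations of HFC and LFC arrays at the same time label correlated with a median of 0.179, and 5 of 10 time labels were over 0.1, so the labels do not all pair.

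Each of the 10 genes was read from its brightest probe, and further probes are given where they disagree. Genes of pathway and marker lists are counted, and at most 4 of a list that passed the threshold are named. The 2 NF-kappaB genes that rose are named as well. The 5 other genes most like the members are named by Spearman correlation. The members, the lists and the comparison of titles were chosen with earlier results of these data known. Alternatives were other background corrections, scalings, filters, blocks (statmod 1.5.0), probes and sets of arrays, and the t-test that the methods of the liver study name. The fit was tested on simulated data. Python 3.11.15 with numpy 2.4.6, pandas 2.3.3 and matplotlib 3.10.9 was used for summaries and plots.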

Additional observations from a re-analysis of the deposited data

Results flagged for a closer look

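Within the diets of 6 to 10 arrays (not HFC, with 11), 5 member values lay far from the rest of their group, of 40 combinations of gene and diet. Chance alone gives about 1 in 20 for independent values. These values share the same few arrays and come from genes that move together, so that rate does not apply. HF75 Week 15 was lowest for Il1b (-5.22), Il6 (-6.80) and Ptgs2 (-8.54), and HF20 Week 12 for Il6 (-8.72) and Ptgs2 (-8.70). Both arrays are titled BA, each the only such array of its diet, and Il6 and Ptgs2 were not well above background on them.

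The difference of HFC minus LFC had opposite signs at Week 9 and Week 12 in all 9 tested members, with 1 array a diet and week, so the difference between the weeks was not tested. It was -7.01 and 7.44 for Il1b, -8.29 and 11.4 for Il6, -6.57 and 9.72 for Ptgs2, -4.94 and 8.61 for Tnf, and -7.68 and 3.72 for Osm. It was -4.43 and 5.73 for Il1a, -1.78 and 5.27 for Il1rn, -2.30 and 3.37 for Il18, and -1.57 and 0.95 for Nlrp3. At Week 9, Il1a, Il1rn, Il18, Ptgs2 and Nlrp3 were not well above background on the dim LFC array.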

How the results depend on the processing

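In the diet comparisons and over time, 0 members passed under every alternative run. For HFC against LFC, normexp turned Il1a (-0.29), Il1rn (-0.028), Il18 (-0.089), Osm (-0.29) and Nlrp3 (-0.38). Leaving out the 9 titled arrays turned Il1b (-0.31) and Il6 (-1.25), leaving out the 3 arrays with many flagged spots turned Tnf (-0.20) and Il6 (-0.38), and a term for the title, chosen after seeing the data, turned Il6 (-0.21) and Osm (-0.013). Leaving out single time labels gave -0.060 to 1.51 for Il1b, -0.70 to 1.42 for Il6, -0.33 to 1.05 for Tnf and -0.027 to 1.28 for Osm, with the lowest without Week 12 for Il6 and Tnf and without Week 18 for Il1b and Osm. For the titles, 5 to 9 members passed, 5 with the filter of 20 arrays, which tests 7, and 9 with normexp. Il1rn turned with quantile normalization (0.061), at Week 9 to Week 18 alone (0.039, chosen after seeing the data) and across single time labels left out (-1.03 to 0.14), and Nlrp3 with quantile normalization (0.32). Leaving out single time labels gave 5 to 8 members. Over all probes the titles gave 17820 calls, 28426 with normexp, 10425 with quantile normalization and 10061 to 20338 with single time labels left out. The diet comparisons and the slope gave 0 calls over all probes as reported and at most 5 under any alternative. Tnf was lost without Week 9 (-2.21) and Week 15 (-2.52), and Il1a without Week 9 (-1.27) and Week 12 (-1.62) and with quantile normalization (-0.49). Without the replicate block of time labels, 7 members passed for the titles and 0 in the diet comparisons. Day 14 exchanged and HFC Week 6 left out, both chosen after seeing the data, changed no call. The causes were not tested. On dim arrays weak genes lie at background, so Il1a, Il12b, Ptgs2 and Nlrp3 are the least certain.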
